A study of Mus musculus with 6 samples.

Results

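The comparison described here is that of small intestine from tamoxifen-treated Fitm2 knockout mice on day 3 with the same tissue on day 2. It uses 2 of the 6 arrays of the series, the KO day 3 array and the KO day 2 array, and the 2 control arrays of the same days are set beside them. KO mice carried ROSA26CreERT2 together with the L/L alleles, and the controls (L/L) carried the same alleles without the recombinase. All mice of both genotypes were given tamoxifen at 100 µg per g body weight by intraperitoneal injection, on a schedule covering days 1, 2 and 3 of the experiment. How many of these doses the mice taken on day 2 or day 3 had received is not in the labels. The whole small intestine was flushed and frozen, and total RNA was pooled before labelling, from 7 KO mice on day 2, 6 KO mice on day 3, 6 L/L mice on day 2 and 6 L/L mice on day 3. Strain and sex are not in the labels, and neither is the part of Fitm2 that is removed.

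Each group is 1 pooled array, so the KO day 3 and KO day 2 arrays differ by an amount that has no replicate error, and no p-value belongs to it. Differences are given as log2 of the day 3 intensity minus log2 of the day 2 intensity, so that 1 is a 2-fold difference. The intensity is a brightness on the array, comparable between arrays for one probe set but not between genes. ROSA26CreERT2 acts in every cell type, and the RNA came from whole tissue. Fewer cells of a type and less RNA per cell therefore cannot be told apart in any value that follows.

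Fitm2 encodes a membrane protein of the endoplasmic reticulum that takes part in the budding of lipid droplets, the stores into which cells put triglyceride. Enterocytes absorb dietary fat, rebuild triglyceride in the endoplasmic reticulum and either export it as chylomicrons or hold it in droplets. The intestinal epithelium is renewed within days from crypt stem cells, and CreERT2 is a recombinase that enters the nucleus when tamoxifen binds the estrogen receptor part fused to it.

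The genes of the model were measured first. Fitm2 had an intensity of 123 on day 2 and 127 on day 3 in KO, against 193 and 223 in L/L. Both KO values lay below both L/L values, and the KO values differed by 0.05 between the days. Esr1, whose hormone-binding part is in CreERT2, read 367 and 465 in KO and 56.1 on each day in L/L. Another measured Esr1 probe set read 43.0 and 54.5 in KO and 51.4 and 46.7 in L/L. Gt(ROSA)26Sor, made from the locus into which the recombinase was inserted, read 204 and 168 in KO and 442 and 572 in L/L. Fitm1, the related gene of muscle, read 162 on both days in KO.

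The defining markers of small intestine were bright on these arrays. Fabp2, the enterocyte fatty acid-binding protein, read 27224 and 26843 in KO on days 2 and 3, and Vil1, the villin of the brush border, read 14473 and 14167. Alb, the liver's albumin, and S100a8 of neutrophils lay under the threshold for measured genes. Sex-linked transcripts differed between the KO pools. Xist, made from the inactive X chromosome of females, read 1090 on day 2 and 3030 on day 3 in KO, against 2433 and 3126 in L/L. All 5 measured genes of the Y chromosome were lower on the KO day 3 array, with Kdm5d at 181 and then 66.2 in KO and at 131 and then 92.3 in L/L. The KO day 2 array was thus the lowest of the 4 in Xist and the highest in Kdm5d, and the part of the pools' sex in the values that follow was not tested.

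The KO arrays of the 2 days were close. Over 13042 genes the median difference was 0.01 and the median size of a difference, either way, was 0.09, against 0.12 in L/L. In KO, 18 genes were at least 2-fold higher on day 3, which is 0.138% of the genes, and 12 were at least 2-fold lower, which is 0.092%. At 1.5-fold the counts were 88 higher (0.675%) and 58 lower (0.445%); after centring each array on its median they were 68 and 70. In L/L, 16 genes (0.123%) were at least 2-fold higher and 10 (0.0767%) lower, with 115 (0.882%) and 96 (0.736%) at 1.5-fold. Centring turned the last pair into 80 and 167, and the 2-fold pair into 15 and 15.

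Most of the larger KO differences pointed the same way in L/L. Of the 30 genes at 2-fold in KO, 24 had the same sign in L/L, and of the 146 at 1.5-fold 120 did (82.2%), beside 65.7% of all genes. The KO pair and the L/L pair share no array. Over all genes the differences of the KO pair and the L/L pair had a Pearson r of 0.44 and a Spearman rho of 0.44, a description across genes, which are not replicates and which share array, probe and day. For 12 genes (0.092%) the day difference was at least 2-fold higher in KO than in L/L, and for 12 (0.092%) at least 2-fold lower. limma, fitted with day and genotype over the 6 arrays, called 0 genes (0%) for a day 3 minus day 2 difference shared by both genotypes. At an unadjusted p under 0.05 it listed 1275 genes. The smallest adjusted p was 0.114, for Dusp14. A fit of days 2 and 3 alone called 2 genes, Dusp14 and Sprr1a, both higher on day 3, with a limma adjusted p of 0.0403 each.

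**Figure D1:**
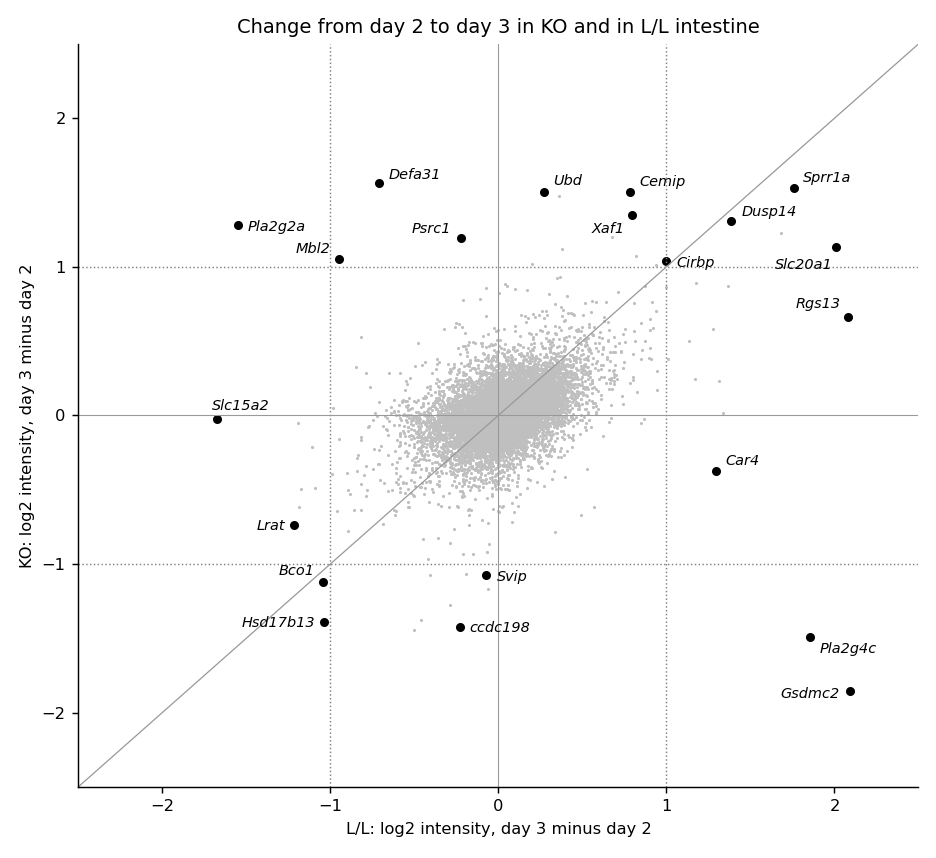
Each point is 1 of 13042 genes, placed by its log2 difference from day 2 to day 3 in L/L (x axis) and in KO (y axis), with dotted lines at 2-fold and the diagonal of equal differences. Gsdmc2 and Pla2g4c lie at the lower right, lower in KO and higher in L/L, Pla2g2a at the upper left, and Sprr1a, Dusp14 and Cirbp near the diagonal.

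Gsdmc2, a member of the gasdermin family of pore-forming proteins, was the lowest of the named genes in KO. It read 402 on day 2 and 111 on day 3 in KO, a difference of -1.85, and 276 and 1176 in L/L, a difference of 2.09. Pla2g4c, a cytosolic phospholipase A2, read 278 and 99.2 in KO (-1.49) and 110 and 400 in L/L (1.86). Both genes were brighter in KO than in L/L on day 2 and dimmer on day 3. A second Pla2g4c probe set had the same signs, at -0.49 in KO and 0.87 in L/L. Car4, a membrane-bound carbonic anhydrase, read 434 and 335 in KO (-0.37) and 484 and 1188 in L/L (1.30).

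Genes of lipid and retinoid metabolism were among the lowest on the KO day 3 array. Hsd17b13, a lipid droplet protein, read 1097 on day 2 and 419 on day 3 in KO (-1.39), and 1421 and 693 in L/L (-1.04). A dimmer Hsd17b13 probe set, at 45.3 and 41.1 in KO, gave -0.14 in KO and -0.19 in L/L. Bco1, which splits beta-carotene to retinal, read 323 and 148 in KO (-1.12) and 481 and 234 in L/L (-1.04). Lrat, which esterifies retinol, read 322 and 193 in KO (-0.74) and 363 and 156 in L/L (-1.22). These 3 genes were lower on day 3 in both genotypes. Of 18 measured genes of retinoid handling, 16 were lower on day 3 in KO and 13 in L/L, with medians of -0.22 and -0.15, beside 0.01 and 0.03 over all genes. Rdh7, a retinol dehydrogenase, read 3850 and 2549 in KO (-0.60) with -0.36 in L/L, and Rbp2, the retinol-binding protein of enterocytes, 8250 and 6659 (-0.31) with -0.21 in L/L. Dhrs3, which reduces retinal back to retinol, read 425 and 308 in KO (-0.46) and 432 and 426 in L/L (-0.02).

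For other genes low on KO day 3, the L/L difference was smaller. Svip, a small VCP-interacting protein of the endoplasmic reticulum, read 718 and 340 in KO (-1.08) and 749 and 713 in L/L (-0.07), and a second probe set gave -0.34 in KO. ccdc198 read 209 and 78.1 in KO (-1.42) and 160 and 137 in L/L (-0.23). Mccc1, a subunit of the carboxylase of leucine breakdown, read 639 and 337 in KO (-0.92) and had -0.07 in L/L, with -0.87 from a second probe set in KO. Akr1c14, an aldo-keto reductase acting on steroids, read 1156 and 604 in KO (-0.94) and had -0.21 in L/L. Ctse, the protease cathepsin E, read 443 and 211 in KO (-1.07) and 470 and 411 in L/L (-0.19), but its second probe set gave -0.06 in KO. For Pbld1 (62.3 and 24), Nox4 (74.1 and 30.6) and Hbb-b2 (70.8 and 31.5), the KO day 3 value lay under the measured threshold of 38.9, and raising it to the threshold left differences of -0.68, -0.93 and -0.86. Their L/L differences were -0.46, -0.29 and -0.06, so that Pbld1 at the threshold was near its L/L value.

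**Figure D2:**
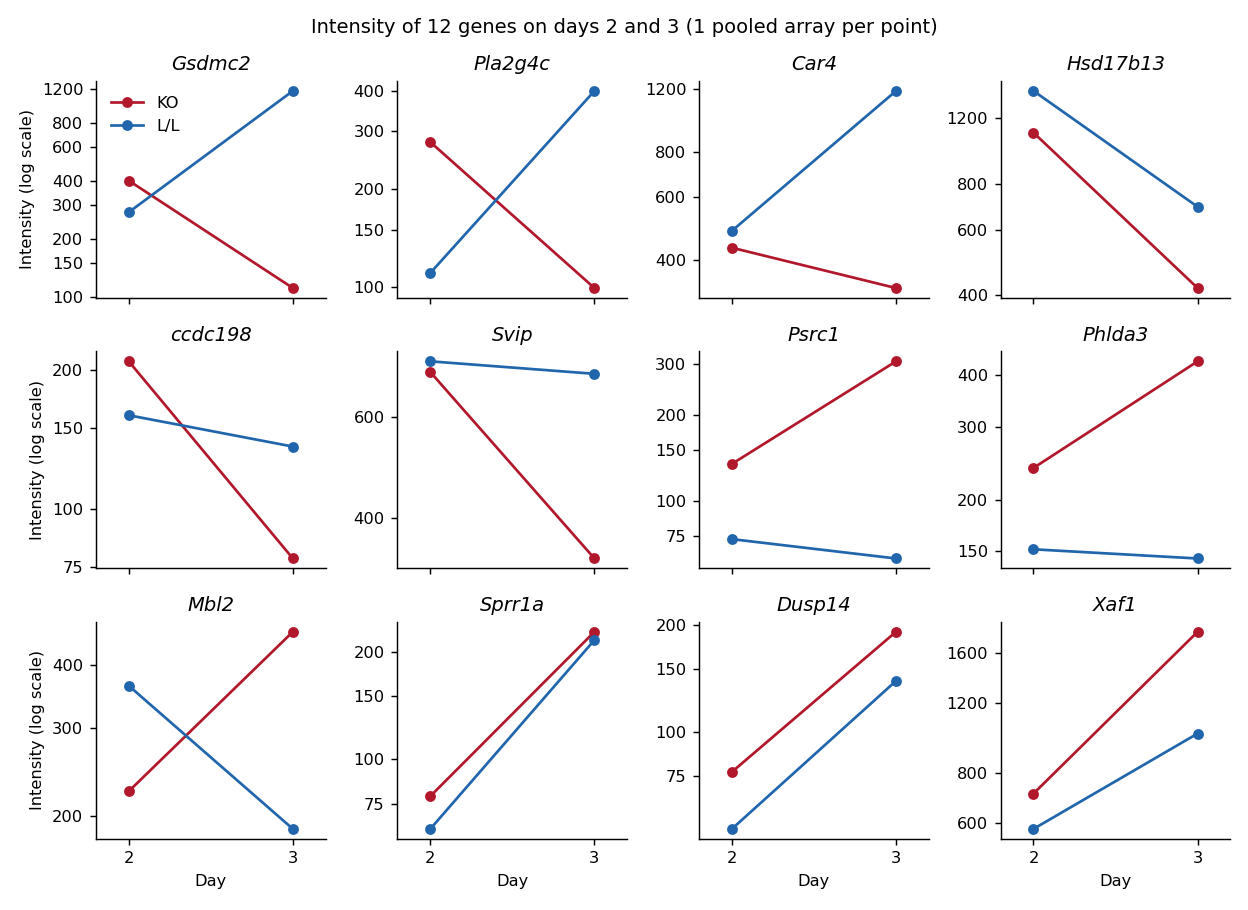
Intensity of 12 genes (y axis, log scale, a different range in each panel) on days 2 and 3 in KO (red) and L/L (blue), 1 pooled array per point. The lines cross for Gsdmc2, Pla2g4c, ccdc198 and Mbl2, run side by side for Dusp14, and lie apart on day 3 for Psrc1 and Phlda3.

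At the upper end stood genes that were higher on day 3 in both genotypes. Sprr1a, a small proline-rich protein of stressed and repairing epithelia, read 78.6 and 227 in KO (1.53) and 63.7 and 215 in L/L (1.76). Dusp14, a protein phosphatase, read 77.2 and 191 in KO (1.31) and 53.4 and 139 in L/L (1.38). Slc20a1, a phosphate transporter, read 713 and 1564 in KO (1.13) and 523 and 2103 in L/L (2.01). Cirbp, a cold-inducible RNA-binding protein, read 242 and 496 in KO (1.04) and 266 and 531 in L/L (1.00). Sprr1a, Dusp14 and Slc20a1 were at least 2-fold higher in both genotypes, and Cirbp was 2.05-fold higher in KO and 1.99-fold in L/L. Phlda1 read 674 and 1416 in KO (1.07) and 633 and 1118 in L/L (0.82), and Fgf15, the ileal hormone that bile acids induce, 59.5 and 136 in KO (1.20) and 64.1 and 102 in L/L (0.68).

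A second set was higher on day 3 in KO, with L/L lower or showing a smaller difference. Pla2g2a, a phospholipase A2 secreted by Paneth cells, read 569 and 1382 in KO (1.28) and 1397 and 478 in L/L (-1.55). Mbl2, a mannose-binding lectin of innate immunity, read 224 and 465 in KO (1.06) and 363 and 188 in L/L (-0.95). Defa31, an alpha-defensin, read 2772 and 8196 in KO (1.56) and 10152 and 6213 in L/L (-0.71). For these 3 genes L/L was the brighter genotype on day 2 and KO on day 3. The control array of day 5 was dimmer still, at 35.3 for Defa31 (under the threshold), 109 for Pla2g2a and 153 for Mbl2. Its knockout counterpart gave 10116 for Defa31, 230 for Pla2g2a and 689 for Mbl2. How far pools of the same genotype and day vary in these genes was not tested. Alpha-defensin genes are near copies of each other, so the Defa31 signal may include other members, and its probe set is not specific to 1 transcript. Ubd, a ubiquitin-like modifier, read 80.5 and 228 in KO (2.84-fold) and 82.4 and 99.7 in L/L (0.27). Cemip, a protein of hyaluronan breakdown, read 44.0 and 125 in KO (1.51) and 38.1 and 65.7 in L/L (0.78), while its second probe set gave 0.22 in KO.

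Genes switched on by p53, which responds to damaged DNA, had the highest median in KO among the lists with at least 5 measured genes, sex-linked lists aside. Of 37 listed targets 32 were measured, and 28 of these were higher on day 3 in KO and 17 in L/L, with medians of 0.31 and 0.00. The all-gene medians were 0.01 and 0.03, and 54.2% of all genes were above 0 in KO and 58.2% in L/L. The KO difference exceeded the L/L difference for 26 of the 32, beside 43.8% of all genes. In KO, 7 targets were at least 1.5-fold higher and none was 1.5-fold lower, beside 0.675% and 0.445% of all genes.

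Promoter sequence is shown for 3 of the targets because p53 binds a known element of DNA. The windows are 60 bases of the 250 bases before the annotated gene start, from RefSeq (GRCm38.p6), 5′ to 3′ in the direction of the gene, and capitals mark a match to the p53 half-site on either strand. They lie at chr17:29090892-29090951, plus strand for Cdkn1a, chr10:117710910-117710969, minus strand for Mdm2 and chr11:40755437-40755496, minus strand for Ccng1.
Cdkn1a: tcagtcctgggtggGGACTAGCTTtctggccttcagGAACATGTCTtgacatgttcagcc
Mdm2: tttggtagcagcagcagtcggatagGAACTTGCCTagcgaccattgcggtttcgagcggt
Ccng1: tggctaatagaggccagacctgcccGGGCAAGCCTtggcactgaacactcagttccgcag
Such a match was found in the promoters of 11 of the 26 targets with an entry (42.3%). The share was 8.2% of all 27025 genes with an entry and 7.24% of the 10474 among the measured genes. Among the 7 targets at 1.5-fold, Aen and Ckap2 hold a match in this window. The list was made of known targets, so these shares do not bear on the day differences. A match is not a measured binding site.

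The targets differed in size of response. Psrc1, a microtubule-associated protein, read 134 and 307 in KO (1.19) and 73.3 and 62.7 in L/L (-0.22), and a second probe set gave 0.76 in KO. Gtse1, a cell cycle protein that binds p53, read 136 and 250 in KO (0.88) and 126 and 129 in L/L (0.04). Phlda3, an inhibitor of Akt signalling, read 239 and 433 in KO (0.86) and 151 and 144 in L/L (-0.07). The 7 targets were brighter in KO than in L/L on both days. Plk3 read 160 and 258 in KO (0.69) and 128 and 170 in L/L (0.41). Aen, an exonuclease of apoptosis, read 233 and 367 in KO (0.65) and 168 and 190 in L/L (0.18). Ephx1, an epoxide hydrolase, read 426 and 657 in KO (0.62) and 264 and 221 in L/L (-0.25). Zmat3, an RNA-binding target, read 217 and 324 in KO (0.57) and 147 on both days in L/L. The best known members differed less. Mdm2, the ubiquitin ligase that degrades p53, read 649 and 831 in KO (0.36) and 648 and 649 in L/L (0.00). Ccng1, cyclin G1, read 1800 and 2376 in KO (0.40) and 980 and 961 in L/L (-0.03). Cdkn1a, the cell cycle inhibitor p21, read 3248 and 3650 in KO (0.17) and 2687 and 2777 in L/L (0.05). Fas, the death receptor, had 0.03 in KO, and Gadd45a was the lowest target at -0.11.

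Interferon-stimulated antiviral genes were higher on day 3 in both genotypes. Of 37 listed 31 were measured, of which 27 were above 0 in KO and 29 in L/L, with medians of 0.28 and 0.43, and the median of KO minus L/L was -0.07. In KO, 3 of them were at least 1.5-fold higher, beside 0.675% of all genes, and in L/L 8, beside 0.882%. Xaf1, an interferon-induced partner of the apoptosis inhibitor XIAP, read 711 and 1811 in KO (1.35) and 580 and 1006 in L/L (0.80), although a second probe set gave -0.11 in KO. Zbp1, a sensor of Z-form nucleic acid, read 279 and 433 in KO (0.63) and 197 and 305 in L/L (0.63). Irf7, a transcription factor that amplifies the interferon response, read 1582 and 2395 in KO (0.60) and 1041 and 1547 in L/L (0.57). Irf7 thus differed between the days by nearly the same amount in each genotype, as did this Zbp1 probe set, while a second one gave 0.35 in KO and 0.00 in L/L.

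Many of the antiviral genes already stood higher in KO on day 2 and differed more between the days in L/L. Usp18, which damps interferon signalling, read 1770 and 2179 in KO (0.30) and 589 and 1134 in L/L (0.94). Oas1a, a sensor of double-stranded RNA, read 3152 and 4326 in KO (0.46) and 1690 and 3164 in L/L (0.91). Ifit1, which binds viral RNA caps, read 2743 and 3276 in KO (0.26) and 1178 and 1476 in L/L (0.33). In L/L these 3 genes started below the KO day 2 value and were higher on day 3, which by itself brought them nearer to it. The lowest member in KO was Cmpk2, a nucleotide kinase, at 1342 and 1071 (-0.33).

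Their promoters are shown because interferon acts through a short element, the interferon-stimulated response element, searched here as GAAANNGAAA on both strands (its reverse complement appears as capitals too, and matches that overlap were joined). Capitals mark it in 60 bases before the gene start of Ifit1 (chr19:34640769-34640828, plus strand) and Oas1a (chr5:120907526-120907585, minus strand), in the direction of the gene and from the same RefSeq build.
Ifit1: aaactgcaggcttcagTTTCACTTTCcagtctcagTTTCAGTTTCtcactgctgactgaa
Oas1a: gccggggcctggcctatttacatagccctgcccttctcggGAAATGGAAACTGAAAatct
The element was found in the promoters of 9 of the 22 antiviral genes with an entry (40.9%). The share was 3.46% of all 27025 genes and 3.14% of the 10474 among the measured genes. The list was made of known interferon-stimulated genes, so these shares do not bear on the day differences. A match describes these letters and is not a measured binding site.

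**Figure D3:**
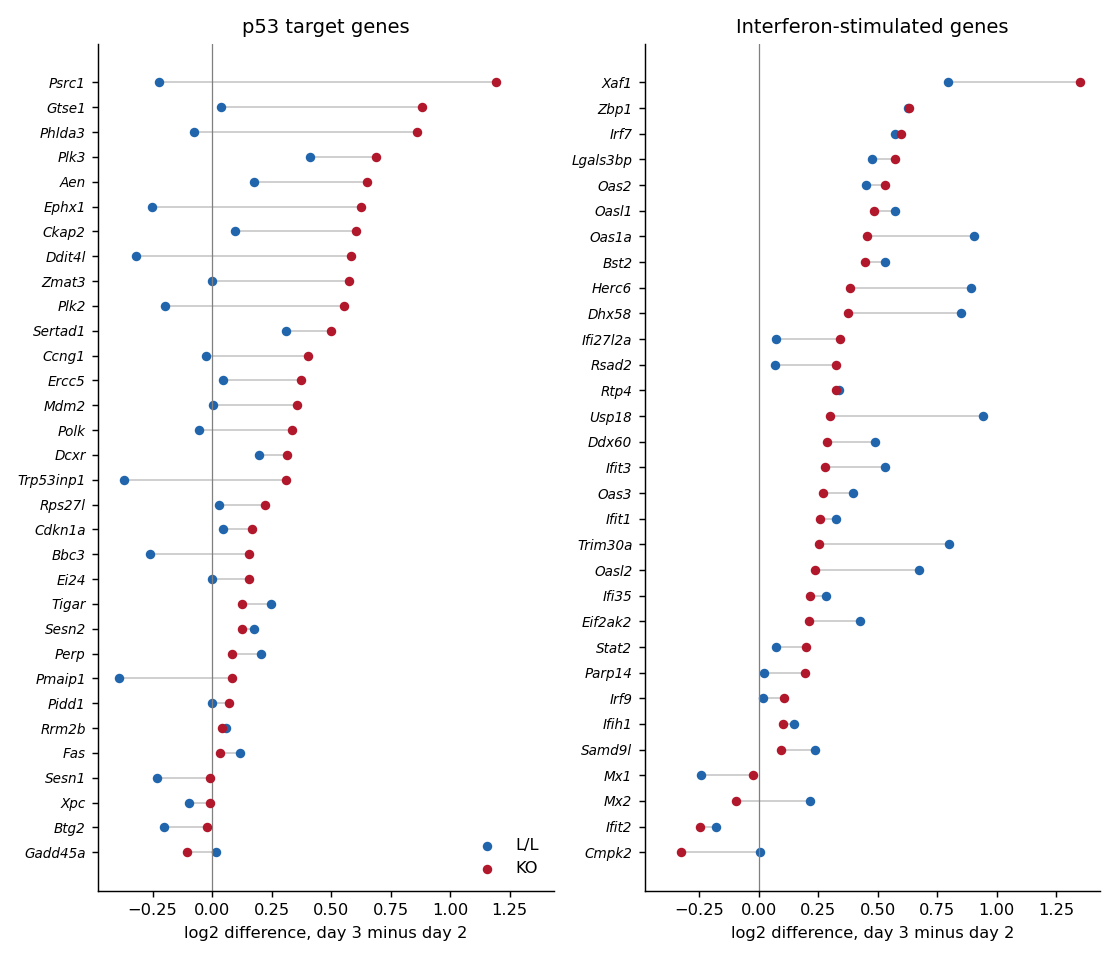
log2 difference from day 2 to day 3 (x axis) of the 32 measured p53 targets (left) and 31 interferon-stimulated genes (right), in KO (red) and L/L (blue), ordered by the KO value. Red points lie to the right of blue for 26 of the p53 targets, and among the interferon genes both colours lie mostly above 0.

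Antigen presentation and immune cell genes followed. All 12 measured genes of MHC class I processing were above 0 in KO, as in L/L, with medians of 0.24 and 0.25, and Tap1, the peptide transporter, read 609 and 910 in KO (0.58) with 0.90 in L/L, while a second probe set gave 0.02 in KO. Of the 9 MHC class II genes 7 were above 0 in KO, with a median of 0.26 against 0.15 in L/L. Of 23 genes of macrophages and myeloid cells, 22 were above 0 in KO and 12 in L/L, with medians of 0.22 and 0.01 (0.17 and -0.07 after centring). None of the 23 was 1.5-fold higher in KO, beside 0.675% of all genes. Cd14, the endotoxin co-receptor, read 98.4 and 140 in KO (0.51) and 107 and 108 in L/L (0.01). C1qa, of complement, read 492 and 632 in KO (0.36) and 447 and 398 in L/L (-0.17). The myeloid list's summed intensity was 10797 and 12622 in KO and 10196 and 10657 in L/L, and Csf1r, a defining macrophage receptor, differed by 0.04 in KO. T cell genes had medians of 0.15 and 0.07 (0.10 and -0.01 after centring), and B cell and plasma cell genes -0.05 in KO.

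Cell cycle and protein turnover lists separated the genotypes to different degrees. Of 33 mitosis genes, 22 were above 0 in KO and 30 in L/L, with medians of 0.04 (-0.01 after centring) and 0.25, and 4 had a larger value in KO. Mki67, a marker of dividing cells, read 916 and 895 in KO (-0.03) and 894 and 1301 in L/L (0.54). Lgr5, the crypt stem cell receptor, differed by -0.07 in KO and -0.08 in L/L. Olfm4, the other stem cell marker, read 5992 and 4639 in KO (-0.37) and 5977 and 5115 in L/L (-0.22). The 23 measured crypt stem cell and Wnt target genes had medians of 0.08 and 0.09, with 15 above 0 in KO and 14 in L/L. Ribosome biogenesis factors were above 0 for 33 of 34 genes in each genotype, with medians of 0.18 and 0.23, and proteasome subunits for 30 of 31 in KO and 31 in L/L, with medians of 0.14 and 0.22. DNA replication genes had medians of 0.09 and 0.17.

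Energy and sterol lists had lower medians in KO than in L/L. Of 50 genes of the respiratory chain and ATP synthase, 15 were above 0 in KO and 43 in L/L, with medians of -0.03 and 0.07. Of 19 enzymes of the TCA cycle, 3 were above 0 in KO and 16 in L/L, with medians of -0.06 and 0.06. Of 27 genes of fatty acid oxidation, 7 and 19 were above 0, with medians of -0.05 and 0.05. After centring each array on its median, the medians of these 3 lists had the same sign in both genotypes: -0.08 in KO and -0.01 in L/L for the respiratory chain, -0.11 and -0.01 for the TCA cycle, and -0.10 and -0.02 for fatty acid oxidation. Before centring, the median size of a single gene's difference was 0.09 in KO and 0.12 in L/L, which is not the spread of a list median. Of 22 genes of sterol synthesis, 8 were above 0 in KO and 21 in L/L, with medians of -0.05 and 0.19, and 2 had a larger value in KO; after centring the medians were -0.10 and 0.11. Insig1, which holds back sterol synthesis, read 944 and 741 in KO (-0.35) and 925 and 990 in L/L (0.10). Fdps, a farnesyl diphosphate synthase, read 843 and 703 in KO (-0.26) and 753 and 928 in L/L (0.30). Msmo1, a sterol methyl oxidase, read 2351 and 1762 in KO (-0.42) and 1936 and 1796 in L/L (-0.11), but a second probe set gave 0.18 in KO and 0.30 in L/L. Scd2, a fatty acid desaturase, read 780 and 787 in KO (0.01) and 584 and 1475 in L/L (1.34); its other probe sets gave 0.17 and 0.32 in KO and 0.64 and 0.57 in L/L.

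**Figure D4:**
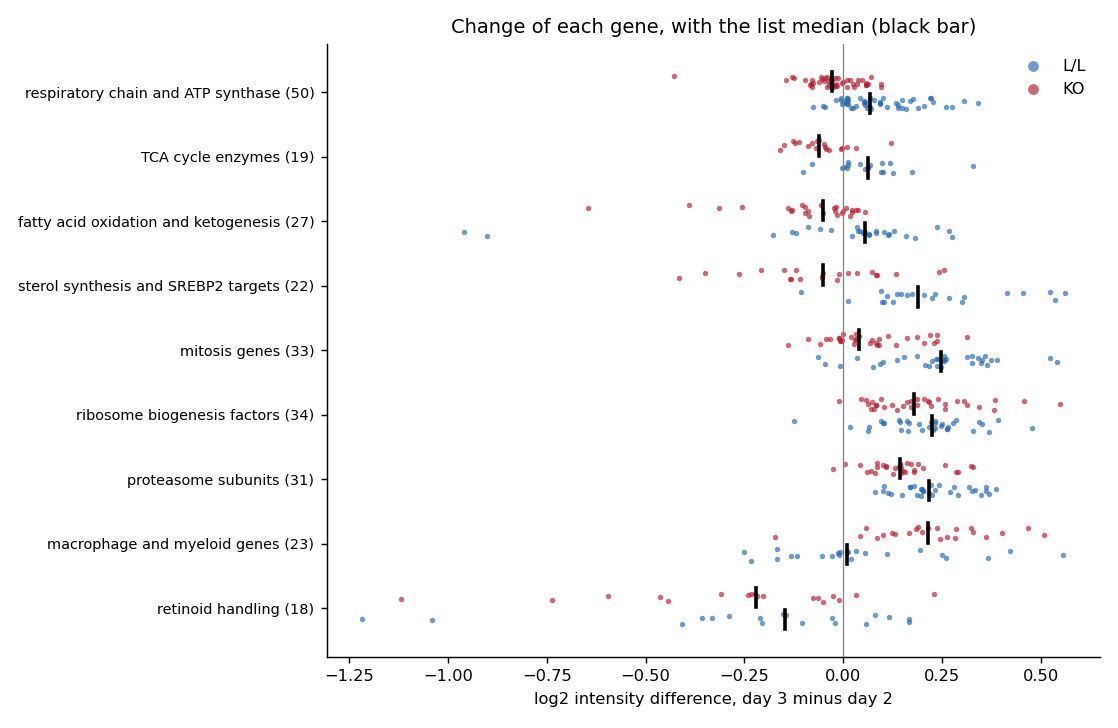
log2 difference from day 2 to day 3 (x axis) of each measured gene of 9 lists in KO (red, upper row) and L/L (blue, lower row), with the list median as a black bar. The KO medians lie to the left of the L/L medians for the respiratory chain, TCA cycle, fatty acid oxidation and sterol lists; they lie on opposite sides of 0 as drawn, which after centring holds for the sterol list only.

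The lipid pathways nearest to Fitm2 were close to the all-gene median in KO, and centring turned the sign of the droplet, triglyceride, phospholipid and sphingolipid medians. Lipid droplet and lipolysis genes had a median of 0.02 over 27 genes, with Hsd17b13 as the exception described above, and Plin2, a droplet coat protein, differed by -0.08. Triglyceride synthesis and chylomicron assembly had 0.04 over 28 genes, phospholipid synthesis 0.01 over 21 and sphingolipid genes 0.02 over 27. Genes of the unfolded protein response had -0.07 over 27 genes. Ero1a, an oxidase of the endoplasmic reticulum, was above that list at 0.62 in KO and 0.85 in L/L, and other probe sets gave 0.98 and 0.86 in KO and 1.38 and 0.85 in L/L. Abca1, a sterol exporter, had 0.55 in KO and 0.19 in L/L, and its other probe sets gave 0.90 and 1.04 in KO and 0.22 and 0.25 in L/L. Cd36, a fatty acid receptor, had -0.45 in KO and -0.43 in L/L.

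Genes of the epithelial cell types differed by lineage. Of 13 Paneth cell products 10 were above 0 in KO and 5 in L/L, with medians of 0.18 and -0.08, and 3 were at least 1.5-fold higher in KO, namely Defa31, Pla2g2a and Reg3g (0.59 in KO, -0.22 in L/L), an antibacterial lectin; 0.675% of all genes passed that fold. Lyz1, the Paneth cell lysozyme, differed by 0.18 in KO and 0.03 in L/L. Ang4, a Paneth cell angiogenin, read 5300 and 4804 in KO (-0.14) and 3076 and 4730 in L/L (0.62). Goblet cell products had medians of 0.03 (-0.02 after centring) and -0.05 with 18 of 21 larger in KO, and hormones and granins of enteroendocrine cells -0.02 and -0.18 with 21 of 26 larger in KO. The pancreatic acinar list had medians of -0.03 and -0.34 over 16 measured genes of 31 listed. Its summed intensity was 50384 and 47096 in KO and 52716 and 44041 in L/L. Its acinar markers were dim beside that sum. Ctrb1 read 87.5 and 106 in KO and 102 and 59.0 in L/L. Cela1 read 233 and 278 in KO and 248 and 220 in L/L, and Cpa1 42.8 and 45.9 in KO and 52.1 and 33.9 in L/L. The sum thus lies mostly in other genes of the list. How far the list marks attached pancreas, and its part in the differences from L/L, were not tested. Tuft cell genes had medians of 0.12 and 0.22, and 5 of 16 had a larger value in KO. Trpm5, their taste channel, read 55.5 and 92.1 in KO (0.73) with 0.37 in L/L, while a second probe set gave 0.33 and 0.29. Dclk1, the other defining tuft marker, had 0.11 in KO and 0.38 in L/L. Brush border enzymes were above 0 for 6 of 24 genes in each genotype, and Akp3, an intestinal alkaline phosphatase, read 135 and 88.5 in KO (-0.61) with -1.19 in L/L. Adipocyte genes, with medians of -0.16 in KO and -0.33 in L/L, were lower in both.

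Genes of injury and stress were mixed. Regenerating epithelium and YAP targets had medians of 0.16 and 0.03 (0.11 and -0.05 after centring). Tnfrsf12a, a receptor of wounded tissue, had 0.87 in KO and 0.05 in L/L, and a second probe set gave 0.67 and 0.29. Hypoxia and glycolysis genes had medians of 0.11 and 0.20, and Ankrd37, a hypoxia-induced gene, read 44.2 and 89.8 in KO (1.02) with 0.20 in L/L. Casp4, an inflammatory caspase, had 0.66 in KO and 0.22 in L/L, and Ripk3, the kinase of necroptosis, 0.68 and 0.50. Xenobiotic enzymes had medians of -0.07 in KO and 0.06 in L/L (-0.12 and -0.02 after centring), with 22 and 37 of 54 genes above 0. Gsta2, a glutathione transferase, had -0.62 in KO and 0.57 in L/L.

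**Figure D5:**
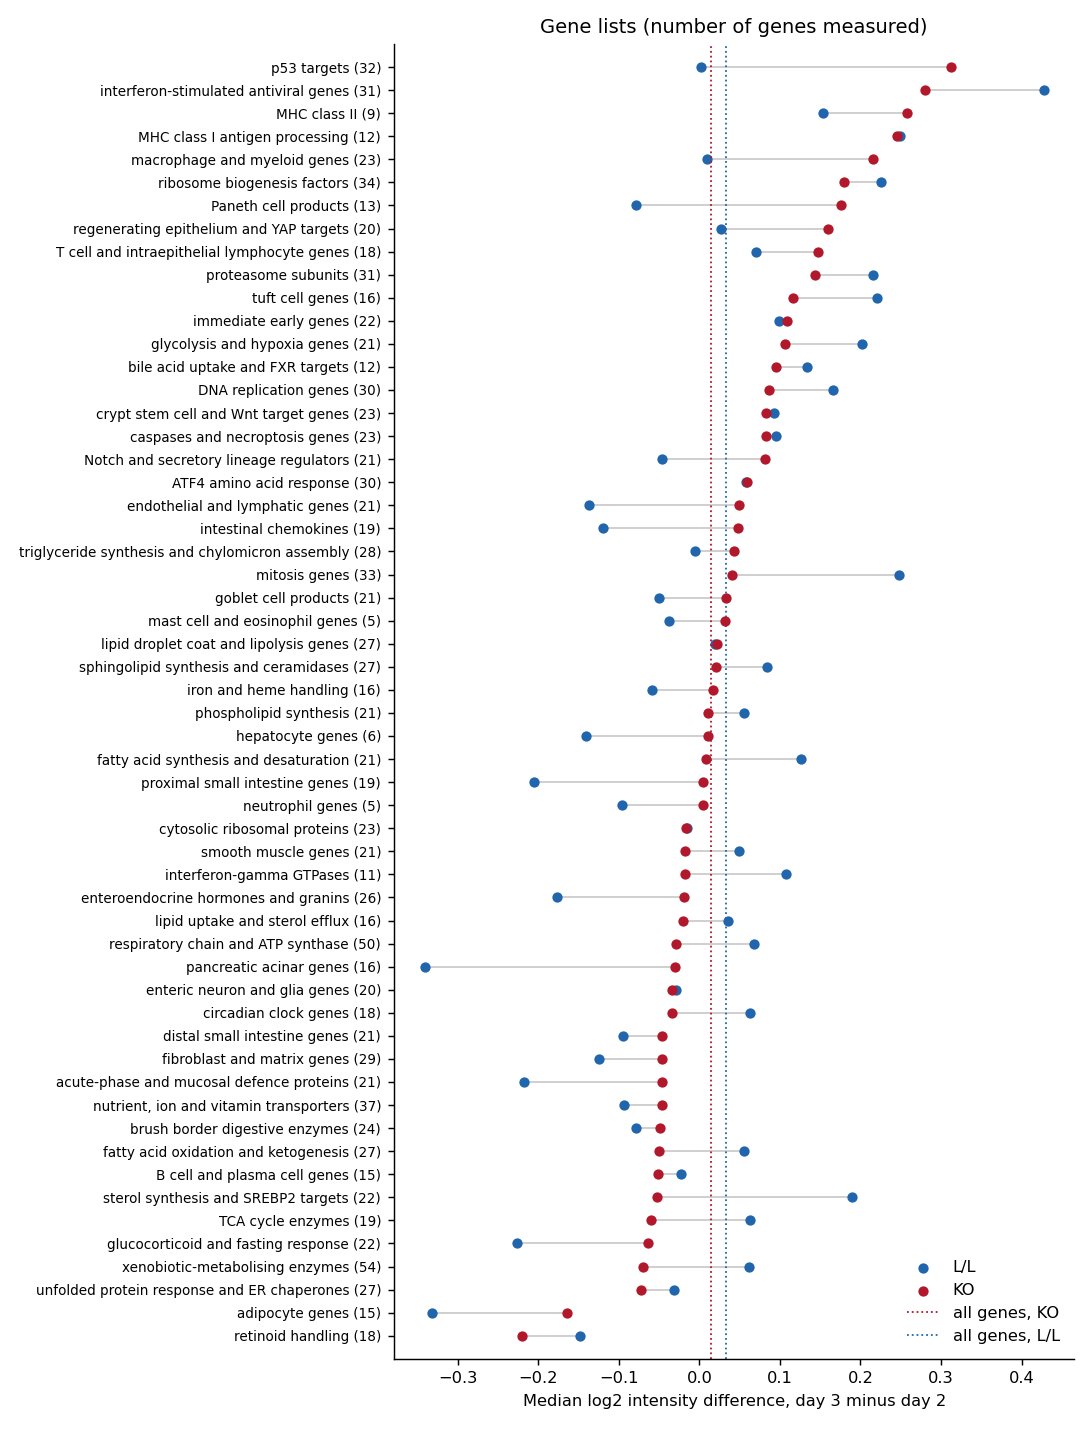
Median log2 difference from day 2 to day 3 (x axis) of each gene list with at least 5 measured genes, sex-linked lists left out (y axis, number of genes in brackets) in KO (red) and L/L (blue), with dotted lines at the medians of all genes, 0.01 and 0.03. Among the lists drawn, the p53 targets have the highest KO median, 0.31, and retinoid handling the lowest, -0.22.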

How the data were processed

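RNA of whole small intestine, pooled over mice, was read on 6 arrays of 3' probe sets, 1 per genotype and day. The deposited values are intensities on a linear scale, spread from 3.82 to 31146. Partek and RMA are named in the submitters' processing notes, with no versions and no order. Values were taken to log2 here, with no further normalization. Of 45101 probe sets, 34945 name 1 gene, 932 several and 9160 none in the annotation used; symbols were updated through gene IDs. The brightest probe set stood for a gene, and 13042 of 18193 genes passed a filter (mean log2 above the 40th percentile, an intensity of 38.9). With 1 array per group, a 2-fold or 1.5-fold difference replaces a test. limma 3.58.1 (R 4.3.3) tested the day 3 minus day 2 difference shared by both genotypes, with Benjamini-Hochberg adjustment at 0.05. It was tested on simulated data with 200 changed genes of 13042: 82.5% of genes with a log2 change of 1 were recovered, and 2.94% with 0.5. In the fit over the 6 arrays, Sprr1a with a shared difference of 1.65, Slc20a1 with 1.57 and Cirbp with 1.02 were not called. Their limma adjusted p-values were 0.441, 0.441 and 0.216. Whether the percentages recovered hold for these arrays was not tested. The limma p-values rest on how far the genotypes depart from a shared day effect, with 2 residual degrees of freedom. They do not measure a spread between replicate pools, of which there are none. The genes named by rule are the 15 highest and 15 lowest in KO, and the 8 at each end of KO minus L/L. The rule also takes the 5 at each end of L/L, up to 4 per list with the largest KO difference, and a fixed set. Sex-linked genes, immune receptor segments and unnamed models were left out of it. Some list members outside the rule are described too, such as Mdm2, Usp18 and Cmpk2. Members and lists were chosen with earlier results of these data known. Alternatives were the probe set rule, the filter, an offset of 32, centring, loess and the limma design. The number of arrays limits the precision.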

Additional observations from a re-analysis of the deposited data

Results flagged for a closer look

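For 3 genes, KO and L/L differed by at least 2-fold in opposite directions from day 2 to day 3, and the difference between the genotypes was not tested. Gsdmc2 had -1.85 in KO and 2.09 in L/L. Pla2g4c had -1.49 in KO and 1.86 in L/L. Pla2g2a had 1.28 in KO and -1.55 in L/L.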

How the results depend on the processing

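The counts of genes moved most with the offset and the filter. With an offset of 32, KO had 11 genes 2-fold higher and 6 lower (18 and 12 in the main setting), and 50 and 31 at 1.5-fold. In L/L, the offset left 5 genes 2-fold lower, and 68 higher and 36 lower at 1.5-fold, and it left 5 genes 2-fold lower in KO than in L/L. With no filter, the 1.5-fold counts were 136 higher and 125 lower in KO and 249 lower in L/L, the 2-fold lower count in L/L was 25, and 46 and 20 genes had a day difference 2-fold higher and lower in KO than in L/L. A filter at the 60th percentile gave 53 higher and 36 lower in KO and 53 lower in L/L at 1.5-fold. The mean of all probe sets gave 4 genes 2-fold lower and 31 1.5-fold lower in KO, 6 genes 2-fold lower in L/L and 6 lower in KO than in L/L. Median centring gave 167 genes 1.5-fold lower in L/L. limma on days 2 and 3 alone called 2 genes higher, against 0. The other settings left the counts within 1.5 times. The cause of these moves was not tested. Of 58 list medians, 22 turned sign under some setting in KO and 20 in L/L. All these lay within 0.06 of 0 in KO, except the erythroid list (-0.11, and 0.05 with the mean of all probe sets). The farthest from 0 in L/L was the sphingolipid list, at 0.08. The limma model compares days within genotype through its genotype term; without that term it also called 0 genes, with 982 at an unadjusted p under 0.05. The neutrophil list has no value at the 60th percentile filter, which left none of its genes. Genes near the threshold of 38.9 are limited by their dim signal, and no replicate error stands behind any KO difference.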

Other observations

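Among probe sets not listed in the annotation used, 3351 lay above the intensity threshold and 11 of them (0.328%) differed by at least 2-fold between the KO days, with 11 in L/L as well. Slc15a2, a peptide transporter, read 70.7 and 69.3 in KO and 59.0 and 18.5 in L/L, the last value under the threshold; a second probe set gave 0.08 in KO and -0.29 in L/L. Rgs13, a regulator of G protein signalling found in tuft cells, read 62.2 and 98.2 in KO (0.66) and 25.5 and 108 in L/L (2.08). Its L/L day 2 value lay under the threshold, and raising that value to the threshold left 1.47 in L/L. Foxq1, a transcription factor, read 179 and 258 in KO (0.53) and 210 and 119 in L/L (-0.82), with 0.24 and -0.30 from a second probe set. Slc1a1, a glutamate transporter, read 392 and 247 in KO (-0.67) and 388 and 546 in L/L (0.49), with -0.38 and -0.23 in KO from other probe sets.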
